A study of Mus musculus with 18 samples.

Results

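Long intergenic noncoding RNAs (lincRNAs) were followed in mouse neutrophils through 6 genotype-by-time groups. Members were the rows of the counts table whose Ensembl ID is a lincRNA in the GENCODE mouse annotation, release M21, with at least 50 raw counts in at least 3 of the 18 libraries. Rows in the stretch of chromosome 9 around Cish were left out, which removed 1 such gene. The rule gave 153 members of 5248 lincRNA rows and of 53379 rows in all, and the other 5094 lincRNA rows had fewer counts. Members were thus chosen by their measured counts, and a member that meets the rule only with the help of the libraries compared is given there by its values, with no test of its own. Just inside the threshold lay Gm16548 and Gm37168, whose 3rd highest count was 50, and Gm26606 and A530076I17Rik with 51. Just outside lay Gm34481 and Gm568 with 49, and Gm43177 and Gm43660 with 48.

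The cells were neutrophils obtained by flow sorting from the bone marrow of mice aged 10 weeks, either wild type (WT) or labelled CIS-/-, a knockout of Cish, the gene of a feedback inhibitor of cytokine receptor signalling. From each genotype there were 3 libraries of cells lysed straight after the sort (unstimulated), 3 after 4 h and 3 after 24 h in medium with 100 ng/mL GM-CSF, a growth factor that keeps neutrophils alive and activates them through STAT5. No group was cultured without GM-CSF, so time in culture and the cytokine cannot be told apart. The labels give neither the sort markers nor the deleted part of Cish, and they do not tell whether the 3 libraries of a group came from different animals, so the p-values speak only of the spread between libraries.

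A lincRNA is a transcript that lies between protein-coding genes and encodes no known protein. Some have known roles: Neat1 is the scaffold of paraspeckles, Malat1 is a resident of nuclear speckles, 2900097C17Rik (Norad) binds Pumilio proteins, and others are the precursors of microRNAs. Gm14005 is the clone name of Morrbid, a transcript of short-lived myeloid cells that restrains the pro-apoptotic gene Bcl2l11 on the same chromosome. Most members have no described function: 138 of 153 carry a clone, Riken or accession name. Of the 153, 28 had 1 exon block and 125 had more. The median length of merged exons was 1977 bases, with a range from 154 to 20771. In 41 members an exon overlapped an exon of another annotated gene, 14 on the same and 31 on the opposite strand. Whether reads were counted by strand is not stated, so reads within these overlaps may belong to the partner.

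Mature microRNAs that lie inside 3 of the members are shown, assigned to them by position on the same strand. Of the 11 mature forms within Mir17hg and the 6 within 6720427I07Rik only some are shown. Sequences are from RefSeq (GRCm38.p6), 5′ to 3′, with the seed (bases 2 to 8) in capitals. In all, 7 members spanned 14 microRNA hairpins on their own strand. Within Mir17hg (chromosome 14, plus strand) miR-17-5p and miR-20a-5p have 1 seed, and miR-19a-3p and miR-19b-3p share another.
miR-17-5p: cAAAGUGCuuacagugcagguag
miR-20a-5p: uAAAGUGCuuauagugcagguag
miR-18a-5p: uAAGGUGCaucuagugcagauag
miR-19a-3p: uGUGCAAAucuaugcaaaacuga
miR-19b-3p: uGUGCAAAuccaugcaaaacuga
miR-92a-3p: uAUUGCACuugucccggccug
Mir142hg (chromosome 11, plus strand) holds the pair from 1 hairpin that is abundant in blood cells.
miR-142a-5p: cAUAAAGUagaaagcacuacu
miR-142a-3p: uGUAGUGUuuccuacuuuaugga
Inside 6720427I07Rik (chromosome 13, minus strand) lie 3 let-7 hairpins, whose 5p arms have the same seed.
let-7a-5p: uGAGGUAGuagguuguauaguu
let-7d-5p: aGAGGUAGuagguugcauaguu
let-7f-5p: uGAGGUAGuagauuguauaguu

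Promoters were read from RefSeq (GRCm38.p6) as the 250 bases before and 50 bases from the start. Of the 153 members 90 had an entry, and in 64 it lay within 500 bases of the GENCODE start. Both strands were searched for 4 motifs. The STAT motif TTCNNNGAA was found in 7 of these 64 (10.938%) and in 8.298% of all 32851 promoters. TGANTCA, the AP-1 motif, was found in 6 (9.375%) beside 7.808%, the interferon motif ISRE (GAAA and GAAA with 2 bases between) in 4 (6.25%) beside 3.443%, and an NF-kB motif (GGG and TTTCC with 2 bases between) in 1 (1.562%) beside 1.629%. A match is a description of letters only. The 4 promoters below are of members whose levels are given later, with motif matches in capitals. In Gm19951 the STAT match starts 175 bases before the start of the gene. In Gm19510 a STAT match at 171 and an AP-1 match at 160 bases before the start lie side by side. Mirt1 has an AP-1 match 140 bases and D730003I15Rik 1 that begins 11 bases before the start.
Gm19951 (chr12:99642846-99643145, plus strand): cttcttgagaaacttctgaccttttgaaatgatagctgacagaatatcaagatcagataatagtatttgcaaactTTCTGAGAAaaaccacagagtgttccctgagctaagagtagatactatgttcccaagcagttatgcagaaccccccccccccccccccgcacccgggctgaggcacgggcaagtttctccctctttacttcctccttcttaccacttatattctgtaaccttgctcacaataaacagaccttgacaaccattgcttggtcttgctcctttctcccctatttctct
Gm19510 (chr15:59794910-59795209, minus strand): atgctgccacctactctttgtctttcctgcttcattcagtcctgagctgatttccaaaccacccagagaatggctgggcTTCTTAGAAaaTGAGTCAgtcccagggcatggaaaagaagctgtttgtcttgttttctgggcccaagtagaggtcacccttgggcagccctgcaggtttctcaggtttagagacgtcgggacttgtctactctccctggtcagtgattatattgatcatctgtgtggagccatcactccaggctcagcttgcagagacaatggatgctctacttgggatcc
Mirt1 (chr19:53464747-53465046, minus strand): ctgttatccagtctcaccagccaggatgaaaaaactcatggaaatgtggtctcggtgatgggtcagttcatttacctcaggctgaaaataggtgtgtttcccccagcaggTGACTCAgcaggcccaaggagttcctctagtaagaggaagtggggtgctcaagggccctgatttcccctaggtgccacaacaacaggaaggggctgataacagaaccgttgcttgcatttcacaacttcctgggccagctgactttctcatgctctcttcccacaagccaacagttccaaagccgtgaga
D730003I15Rik (chr1:191224204-191224503, plus strand): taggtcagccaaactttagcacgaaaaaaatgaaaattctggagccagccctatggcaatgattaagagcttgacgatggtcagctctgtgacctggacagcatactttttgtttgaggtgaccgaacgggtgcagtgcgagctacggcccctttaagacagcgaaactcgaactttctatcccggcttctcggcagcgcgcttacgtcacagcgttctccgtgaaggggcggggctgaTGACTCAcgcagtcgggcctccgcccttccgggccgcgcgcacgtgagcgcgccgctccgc

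Total counts ran from 12170524 to 22539858 per library. All 12 listed neutrophil markers were found, and their summed level was highest in unstimulated cells (123900 to 131000 CPM) and lowest at 24 h (33900 to 38870 CPM). Csf3r, Cxcr2 and Mmp9 did not follow the sum. Over the 3 times WT held 4219, 4689 and 5900 CPM of Csf3r, 2119, 3408 and 1835 of Cxcr2 and 9363, 5191 and 7256 of Mmp9. In libraries labelled CIS-/- Csf3r stood at 4438, 4900 and 2326 CPM. The other listed markers were lowest at 24 h in both genotypes. Levels are CPM on TMM-scaled library sizes. Cish stood at 6.48 to 6.52 CPM in unstimulated WT libraries and at 17.9 to 20 CPM in those labelled CIS-/-, which goes against the label. At 4 h and 24 h it stood at 1056 to 1155 CPM in WT and at 233 to 243 CPM in libraries labelled CIS-/-. Directions that rest on the unstimulated libraries labelled CIS-/- carry that doubt. In the group labelled CIS-/- at 24 h replicate 1 stood apart, with a chi-square per degree of freedom of 7.498 and 9.317 against the other 2, where other replicate pairs lay between 1.292 and 3.061.

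Together the 153 members took a growing share of all counts. It was 0.43% to 0.486% in unstimulated WT and 0.417% to 0.44% in unstimulated libraries labelled CIS-/-, and 0.541% to 0.634% at 4 h over both genotypes. At 24 h the share was 0.711% to 0.738% in WT and 1.06% to 1.17% in the libraries labelled CIS-/-, with no overlap between the genotypes. Most of that gap was Neat1, which held 0.16% to 0.167% of WT and 0.461% to 0.485% of CIS-/- counts at 24 h. Mean levels over the 18 libraries ran from 0.88 to 1976 CPM with a median of 5.12, and 104 members lay under 10 CPM. The group with the highest mean was CIS-/- at 24 h for 61 members, WT at 24 h for 32, unstimulated WT for 20, unstimulated CIS-/- for 18, WT at 4 h for 13 and CIS-/- at 4 h for 9. The same split over all genes was not computed. The count rule also bears on it: 7 members had 50 counts only in CIS-/- at 24 h, 4 only in WT at 24 h, 2 only in unstimulated WT and 1 only in unstimulated CIS-/-.

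**Figure D1:**
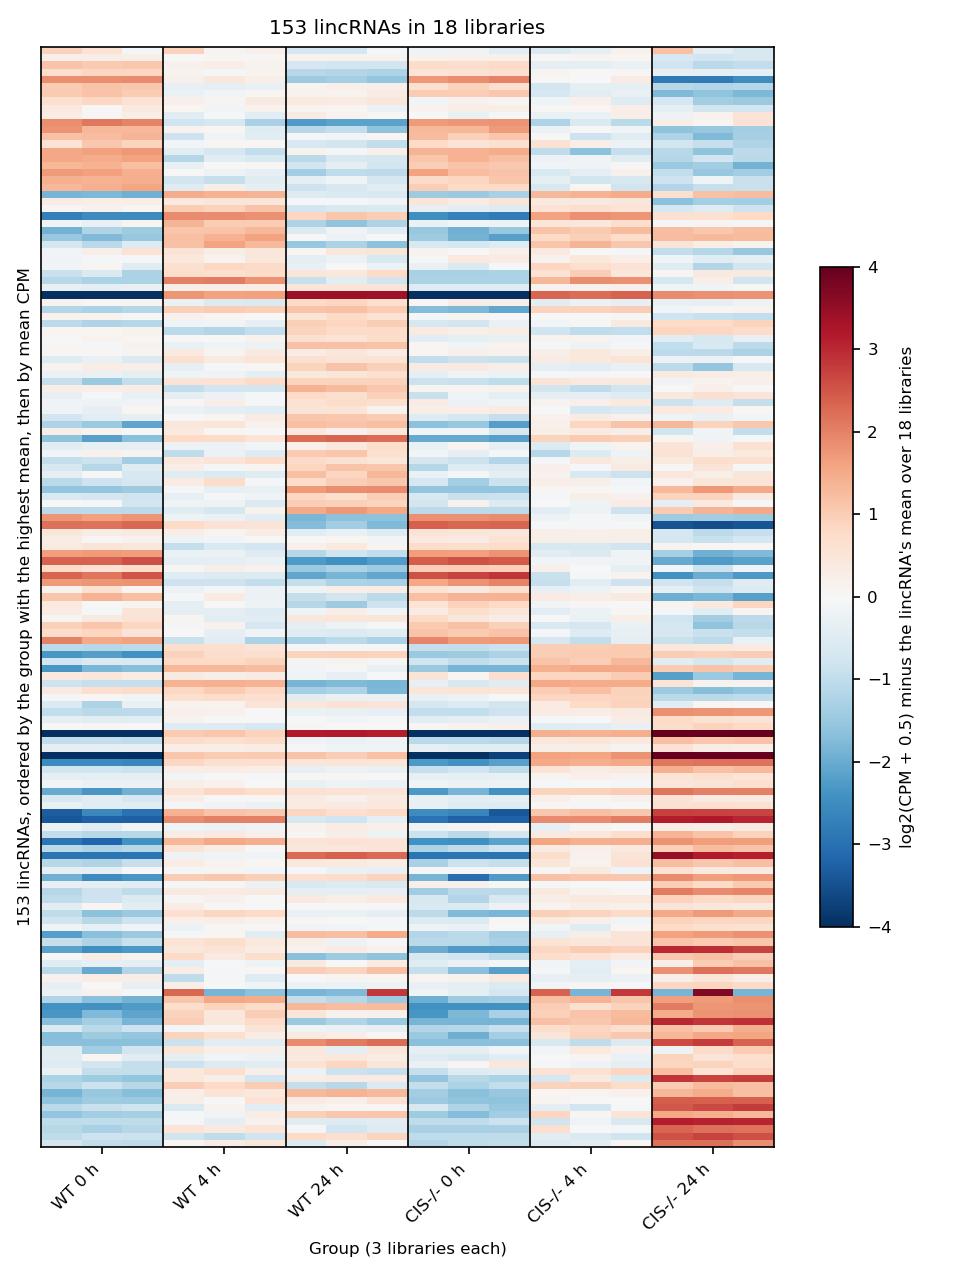
Heat map of the 153 members (one row each) in 18 libraries (columns, 3 per group), coloured by log2(CPM + 0.5) minus the row's mean over all libraries. Rows are ordered by the group with the highest mean, and the lowest block, highest in CIS-/- at 24 h, holds 61 members. The same split over all genes was not computed.

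Levels between genes can be compared only per kilobase of exon. On that scale Gm42418 was highest (300.8 CPM per kb over the 18 libraries), followed by Gm19951 (254.6), Malat1 (170.1), E230014E18Rik (163.2), Mir142hg (134.2), Neat1 (95.1), 4833407H14Rik (91), Mirt1 (42.8), 1810058I24Rik (36.3), Gm38171 (32), 1700047M11Rik (31) and Gm15729 (29.5). The median member lay at 3.46 CPM per kb. Gm42418 (chr17:39846958-39848788, plus strand) is known in mouse RNA-seq as a place where ribosomal RNA reads land. It spread widely within groups: unstimulated WT libraries held 957, 763 and 495 CPM and those labelled CIS-/- at 24 h 1149, 392 and 325 CPM. No comparison of Gm42418 passed the threshold, and the carry-over of ribosomal RNA was not tested. Nor was it tested for Gm26917, which lies beside Gm42418 and whose changes are given below. At 24 h in the libraries labelled CIS-/- Neat1 (258.1 ± 6.56 CPM per kb) and Malat1 (258.5 ± 20.6) differed by less than their SD, whereas in WT at 24 h Neat1 stood at 61 ± 1.35 and Malat1 at 159 ± 7.5.

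Neat1 (chr19:5824708-5845478, minus strand) rose at 4 h in both genotypes and then parted between them. Unstimulated WT libraries held 789, 732 and 752 CPM, those at 4 h 1790.0, 1759 and 1565, and those at 24 h 1298, 1258 and 1244. In the libraries labelled CIS-/- Neat1 stood at 785, 783 and 876 CPM before, 1935, 1911 and 2004 at 4 h and 5449, 5428 and 5203 at 24 h. All CIS-/- libraries at 24 h lay far above every other library. The log2 fold change of CIS-/- against WT was 0.10 ± 0.04 in fresh cells (edgeR adjusted p = 0.0948). After 4 h it was 0.19 ± 0.04 (edgeR adjusted p = 0.00159), and after 24 h 2.08 ± 0.04 (edgeR adjusted p = 1.97e-25). The unstimulated difference passed the threshold when WT unstimulated replicate 1, CIS-/- unstimulated replicate 2 or WT 4 h replicate 3 was left out, with adjusted p between 0.0229 and 0.0466. Between 4 h and 24 h Neat1 changed in WT by -0.43 ± 0.04 (edgeR adjusted p = 8.37e-10), a sign that turned without TMM factors (0.06, edgeR adjusted p = 0.3), and rose by 1.46 ± 0.04 in the libraries labelled CIS-/- (edgeR adjusted p = 7.91e-22).

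Malat1, which lies next to Neat1 on the same strand (chr19:5795690-5802672, minus strand), moved less. It stood at 902, 853 and 848 CPM in unstimulated WT, 1279, 1161 and 1167 at 4 h and 1167, 1063 and 1101 at 24 h. In libraries labelled CIS-/- it stood at 867, 903 and 960.4, then 1119, 1169.7 and 1412 and then 1966, 1759 and 1689.8 CPM. Only the 24 h groups of the genotypes did not overlap, with a log2 fold change of 0.70 ± 0.08 (edgeR adjusted p = 3.81e-06) that did not pass the threshold without TMM factors (0.17, edgeR adjusted p = 0.0845). 2900097C17Rik went from 31.5 ± 0.191 to 42 ± 0.88 CPM in WT and from 32.2 ± 1.17 to 61.9 ± 3.79 CPM in CIS-/- over 24 h (SD, n = 3). The 24 h genotype difference of 2900097C17Rik, 0.55 ± 0.05 (edgeR adjusted p = 7.18e-15), went to 0.02 without TMM factors (edgeR adjusted p = 0.71).

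Gm14005 (chr2:128178319-128502765, minus strand) was likewise higher at 4 h in both genotypes and highest in CIS-/- at 24 h. Its exons overlap Gm14012 and Gm14009 by 301 bases. WT libraries held 22, 21.3 and 20.04 CPM before, 44.9, 46 and 44.9 at 4 h and 29.5, 31.1 and 29.8 at 24 h. The libraries labelled CIS-/- held 19.3, 21.2 and 18.1, 54.4, 45.9 and 48.3 and 99.8, 83.9 and 90.8 CPM. It rose at 4 h by 1.10 ± 0.07 in WT (edgeR adjusted p = 7.47e-22) and 1.33 ± 0.07 in CIS-/- (edgeR adjusted p = 1.63e-25). Genotypes overlapped at 4 h and stood apart at 24 h, where the log2 fold change was 1.60 ± 0.06 (edgeR adjusted p = 3.45e-34).

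Mirt1 (chr19:53443230-53464796, minus strand) and 4833407H14Rik, whose exons overlap it on the opposite strand by 1008 bases, moved in opposite directions at 4 h. Mirt1 fell from 345, 357 and 355 to 243, 243 and 223 CPM in WT (-0.57 ± 0.04, edgeR adjusted p = 9.95e-15), and 4833407H14Rik rose from 58.2, 59 and 57.5 to 192, 185 and 196 CPM (1.71 ± 0.04, edgeR adjusted p = 2e-42). At 24 h WT libraries held 359.7, 343 and 346 CPM of Mirt1, near the start, a difference (-0.01 ± 0.04) whose sign turned without TMM factors (0.30, edgeR adjusted p = 3.5e-06). Libraries labelled CIS-/- held 584, 644 and 609 CPM at 24 h, all above WT (0.81 ± 0.04, edgeR adjusted p = 4.77e-20). Reads within the overlap cannot be given to either gene with certainty.

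**Figure D2:**
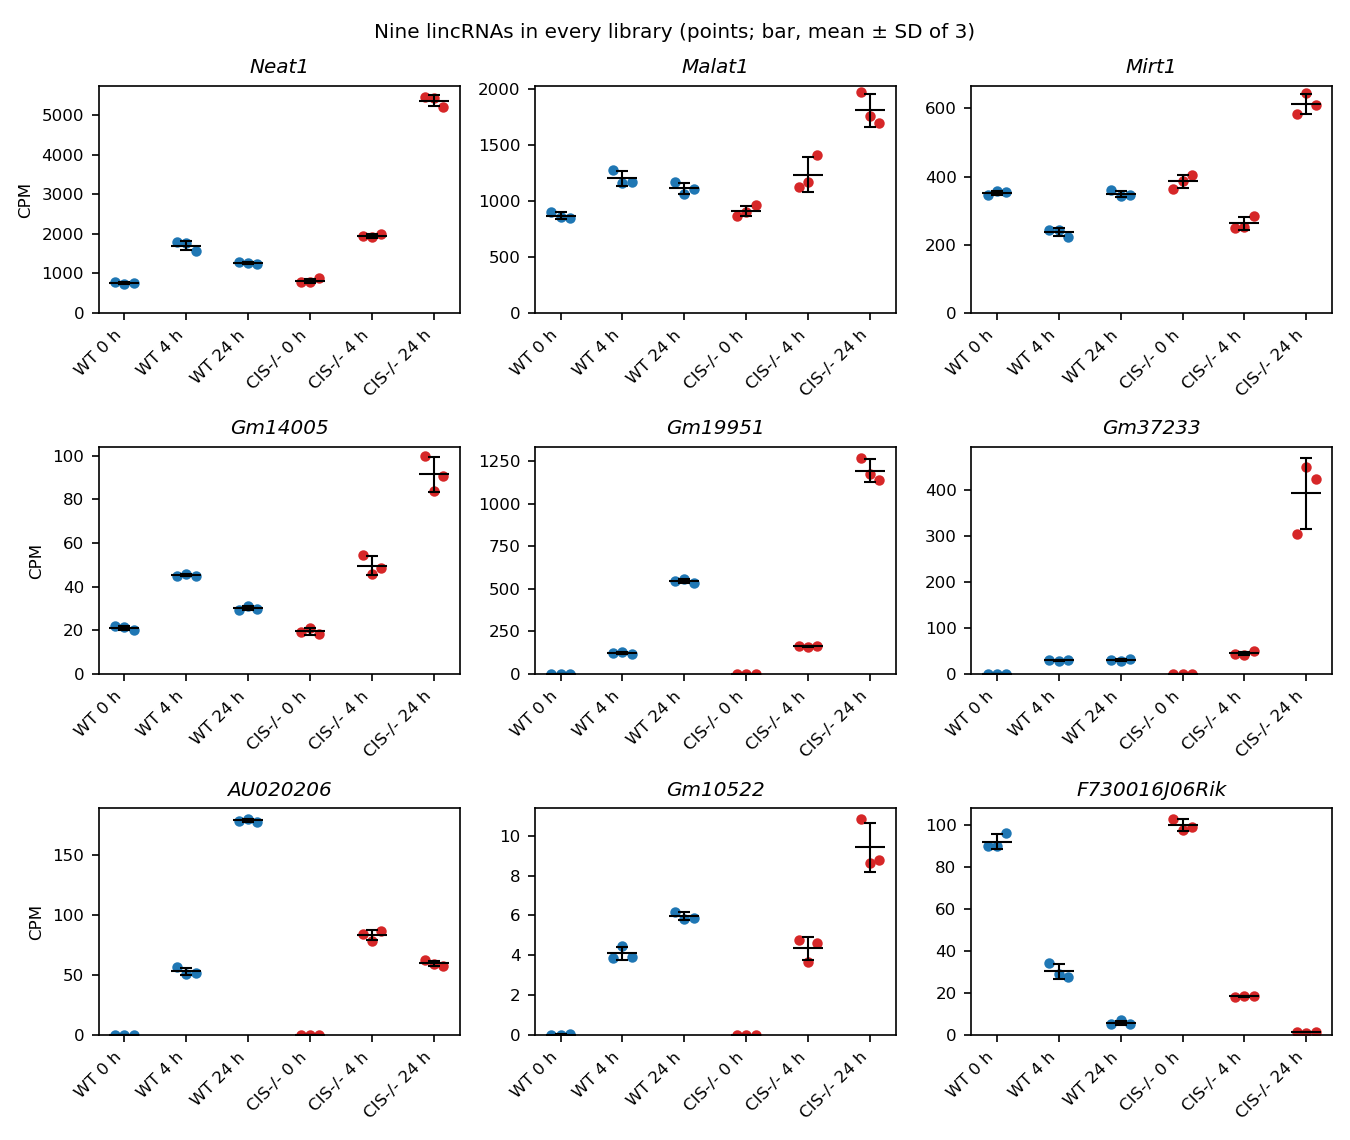
CPM (vertical axes, from 0) of 9 members in the 3 libraries of each group (points, blue WT and red CIS-/-), with the mean and SD as black bars. Neat1, Malat1, Mirt1, Gm14005, Gm19951, Gm37233 and Gm10522 are highest in CIS-/- at 24 h, AU020206 is highest in WT at 24 h, and F730016J06Rik falls from 89.9 to 103 CPM in unstimulated libraries to 1.2 to 1.32 CPM in CIS-/- at 24 h.

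In WT cells after 4 h 129 of the 153 members were called, 86 higher and 43 lower, which is 84.3% beside 76.3% of the 11569 genes tested (38.1% higher and 38.2% lower, and 82.7% of genes with 50 counts in 3 libraries). Among the 147 that met the count rule in libraries outside the comparison, 84 were higher and 39 lower, with a median log2 fold change of 0.59 beside -0.02 over all genes. The outside libraries include the other genotype at the same times, so a member can meet the rule there through the state in which it is high. Most of them are stimulated, so members high after GM-CSF are favoured, which the median of all genes does not carry. A change of at least 2-fold was called in 59.5% of members and in 34.6% of all genes tested. The first share counts all 153 members, also those outside the 147, and the second was taken without the count rule.

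The largest rises at 4 h in WT were of members that were nearly absent from fresh cells. Gm19951 (chr12:99643093-99647221, plus strand), which has no annotated exon overlap, went from 1.41, 1.68 and 1.67 to 126, 129.9 and 116 CPM (6.28 ± 0.08, edgeR adjusted p = 1.72e-56). AU020206 (chr7:75769038-75782099, minus strand) went from 0.183, 0.134 and 0.322 to 56.5, 50.9 and 52.1 CPM (7.86 ± 0.14, edgeR adjusted p = 1.67e-49), and Gm37233, which spans miR-5103, from 0.306, 0.134 and 0.322 to 30.4, 28.4 and 29.5 CPM (6.78 ± 0.48, edgeR adjusted p = 1.53e-08). Each of the 3 was separated from fresh cells in all libraries. In unstimulated libraries of both genotypes Gm19951 had at most 31 counts, AU020206 at most 6 and Gm37233 at most 9. Each thus met the count rule only through stimulated libraries, so a rise from fresh cells was built into its choice. The adjusted p-values given for these members against fresh cells, here and below, do not allow for that. Gm19510 (chr15:59788417-59794959, minus strand) had 2 counts in the unstimulated WT libraries and stood at 19, 21.1 and 20.7 CPM at 4 h, 507 times as high, with a 95% counting interval of 140 to 4190. Gm10522, whose start lies 5397 bases from that of Fcgr2b, the inhibitory IgG receptor gene, had 1 count before and was 205 times as high, with a 95% counting interval of 36.4 to 8160 at 4 h. D7Ertd128e, 4689 bases from the start of Cd22, had no count in fresh WT cells and stood at 2.82, 2.85 and 2.97 CPM at 4 h, at least 47.8-fold above the floor set for a group without counts (3 counts in all). Intervals and floors cover counting error only.

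Other members fell within 4 h. 1700047M11Rik, abundant in fresh cells, went from 193, 179.5 and 194 to 49.2, 47.2 and 40.9 CPM (-2.04 ± 0.05, edgeR adjusted p = 1.57e-42). The largest negative changes were of Gm47230 (-4.09 ± 0.40), Gm36161 (-3.35 ± 0.19), Gm15675 (-3.25 ± 0.18), Gm33326 (-3.03 ± 0.13), Gm26773 (-2.95 ± 0.16) and D130017N08Rik (-2.86 ± 0.22), with edgeR adjusted p between 1.65e-29 and 8.36e-14. Gm33326 stood at 16.3, 16.3 and 19 CPM before and 2.06, 2.04 and 2.25 at 4 h, and Gm15675 at 13.2, 11.4 and 15 and 1.45, 1.36 and 1.37. All unstimulated libraries lay above all 4 h libraries for both.

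After 24 h in WT 131 of the 153 members were called, 89 higher and 42 lower, which is 85.6% beside 78.4% of the 11569 genes tested (40.7% higher and 37.7% lower, and 83.7% of genes with 50 counts in 3 libraries). Among the 131 that met the count rule in libraries outside the comparison, 74 were higher and 38 lower, with a median log2 fold change of 0.71 beside 0.05 over all genes. As at 4 h, most of these outside libraries are stimulated, which favours members high after GM-CSF. Without TMM factors the median of all genes shifted by 0.31 and 100 members were higher and 35 lower. Gm19951 had risen further, to 548, 555 and 533 CPM (8.42 ± 0.07, edgeR adjusted p = 8.39e-67). So had AU020206, at 179, 180.2 and 178 CPM (9.61 ± 0.11, edgeR adjusted p = 5.19e-60), which was higher than at any other time or in the other genotype. D7Ertd128e reached 17.6, 19.6 and 17.9 CPM, at least 307-fold above the floor. Gm35189, also without a count in fresh cells, reached 5.35, 6.19 and 6.92 CPM, at least 102-fold above it. Among the falls, F730016J06Rik (chr2:28095477-28127731, plus strand) went from 90.01, 89.9 and 96.3 to 5.45, 7.06 and 5.35 CPM (-3.93 ± 0.07, edgeR adjusted p = 1.12e-49). Gm36723 changed by -3.60 ± 0.11, Gm33326 by -6.72 ± 0.19, Gm36161 by -6.31 ± 0.24 and Gm15675 by -6.12 ± 0.23. Gm47230, with 2 counts in WT at 24 h, was in fresh cells 123 times as high, with a 95% counting interval of 33.6 to 1030.

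Between 4 h and 24 h in WT 115 of the 153 members were called, 55 higher and 60 lower, which is 75.2% beside 75.3% of the 11569 genes tested (35.7% higher and 39.6% lower, and 82.2% of genes with 50 counts in 3 libraries). Among the 134 that met the count rule in libraries outside the comparison, 43 were higher and 58 lower, with a median log2 fold change of -0.21 beside -0.04 over all genes. This split depends on the scaling, and without TMM factors 80 members were higher and 41 lower with a shift of 0.48 in the median of all genes. Gm19951 rose by 2.14 ± 0.04, Tmem250-ps by 2.31 ± 0.14 and Gm13431, near the prostaglandin enzyme gene Ptgs1, by 1.99 ± 0.10. D7Ertd128e and Gm35189 rose by 2.67 ± 0.14 and 3.41 ± 0.24, and Gm20735, with 2 counts at 4 h, was at 24 h 24.5 times as high, with a 95% counting interval of 6.59 to 206. Among the falls were 9330175E14Rik, from 5.79, 7.95 and 6.35 to 0.466, 0.661 and 0.392 CPM (-3.67 ± 0.21, edgeR adjusted p = 2.33e-23), and 4933432I03Rik, from 16.7, 17.4 and 17 to 1.3, 1.46 and 1.37 CPM (-3.61 ± 0.13, edgeR adjusted p = 1.32e-33). Gm4262 (-3.15 ± 0.20), Gm47709 (-3.61 ± 0.33), Gm33326 (-3.70 ± 0.33) and Gm36161 (-2.96 ± 0.44) fell too.

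In the libraries labelled CIS-/- at 4 h 128 of the 153 members were called, 87 higher and 41 lower, which is 83.7% beside 77% of the 11569 genes tested (37.9% higher and 39.1% lower, and 83.2% of genes with 50 counts in 3 libraries). Among the 145 that met the count rule in libraries outside the comparison, 83 were higher and 38 lower, with a median log2 fold change of 0.61 beside -0.03 over all genes. Here too most outside libraries are stimulated, which favours members high after GM-CSF. Gm19951 went from 1.16, 1.4 and 1.42 to 164, 160.4 and 166 CPM, AU020206 from 0.183, 0.19 and 0.129 to 84.3, 78.4 and 86.6 CPM and Gm37233 from 0.243, 0 and 0.58 to 43.6, 42.2 and 49.3 CPM, with no overlap in any of them. D7Ertd128e, Gm10522 and Gm47709 had no count in fresh cells and were at least 73.6-fold, 67.8-fold and 57.2-fold above the floor at 4 h. Gm19510 rose by 7.46 ± 0.23 (edgeR adjusted p = 1.28e-37). It too met the count rule only through stimulated libraries, with at most 3 counts in any unstimulated one. The largest falls were of D130017N08Rik (-3.64 ± 0.27), Gm15675 (-3.19 ± 0.16), Gm36161 (-3.13 ± 0.20), Gm33326 (-2.82 ± 0.13), Gm26773 (-2.74 ± 0.16) and F730016J06Rik (-2.43 ± 0.07).

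At 24 h in the same genotype 144 of the 153 members were called, 94 higher and 50 lower, which is 94.1% beside 84.1% of the 11569 genes tested (42.1% higher and 42% lower, and 88.3% of genes with 50 counts in 3 libraries). Among the 139 that met the count rule in libraries outside the comparison, 84 were higher and 46 lower, with a median log2 fold change of 0.80 beside -0.01 over all genes. Most of the outside libraries are again stimulated, which favours members high after GM-CSF. Gm19951 reached 1269, 1174 and 1138 CPM (9.81 ± 0.07, edgeR adjusted p = 1.51e-70), and Gm37233 304, 449 and 424 CPM, with replicate 1 the lowest (10.45 ± 0.29, edgeR adjusted p = 2.51e-13). D7Ertd128e was at least 567-fold, Gm10522 at least 149-fold, Gm35189 at least 141-fold and Gm44581 at least 60-fold above the floor. F730016J06Rik fell to 1.32, 1.2 and 1.3 CPM (-6.28 ± 0.11, edgeR adjusted p = 1.17e-51). Gm33326 (-6.10 ± 0.20), Gm36723 (-5.38 ± 0.16), 1810006J02Rik (-4.99 ± 0.43) and Gm38843 (-4.51 ± 0.24) fell as well, and Gm15675, with 3 counts at 24 h, was in fresh cells 249 times as high, with a 95% counting interval of 84.7 to 1210.

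From 4 h to 24 h in the libraries labelled CIS-/- 132 of the 153 members were called, 72 higher and 60 lower, which is 86.3% beside 75.7% of the 11569 genes tested (37.8% higher and 37.9% lower, and 82.3% of genes with 50 counts in 3 libraries). Among the 139 that met the count rule in libraries outside the comparison, 64 were higher and 57 lower, with a median log2 fold change of 0.24 beside -0.01 over all genes. This comparison does not use the unstimulated libraries. Gm35189 rose by 4.32 ± 0.25, Gm37233 by 3.13 ± 0.14, D7Ertd128e by 2.95 ± 0.12, A530076I17Rik by 2.93 ± 0.40, Gm19951 by 2.87 ± 0.04 and 4632404H12Rik by 2.43 ± 0.19. F730016J06Rik (-3.85 ± 0.15), Gm36723 (-3.58 ± 0.22), Gm38843 (-3.42 ± 0.29), Gm33326 (-3.28 ± 0.32) and Gm38079 (-3.10 ± 0.44) fell. AU020206, which went on rising in WT, fell here from 84.3, 78.4 and 86.6 to 62.2, 59.4 and 57.5 CPM (-0.48 ± 0.05, edgeR adjusted p = 6.58e-13).

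Between the genotypes few members differed before stimulation. In fresh cells 28 of the 153 members were called, 16 higher and 12 lower, which is 18.3% beside 22.3% of the 11569 genes tested (12.9% higher and 9.41% lower, and 26.8% of genes with 50 counts in 3 libraries). Among the 134 that met the count rule in libraries outside the comparison, 14 were higher and 10 lower, with a median log2 fold change of -0.02 beside -0.01 over all genes. Without TMM factors 10 were higher and 13 lower. Gm46224, which lies 35384 bases from the start of the inhibitory receptor gene Lilrb4a, stood at 4.87, 5.14 and 5.67 CPM in libraries labelled CIS-/- and 2.45, 2.76 and 2.31 in WT (1.07 ± 0.15, edgeR adjusted p = 6.24e-08). 4933412O06Rik stood at 2.31, 2.09 and 1.68 against 3.85, 4.84 and 4.35 CPM (-1.09 ± 0.18, edgeR adjusted p = 2.74e-06). 6720427I07Rik, the let-7 host, was higher by 1.07 ± 0.24, A530013C23Rik by 0.64 ± 0.18, Gm21781 by 0.62 ± 0.13 and Gm7160 by 0.56 ± 0.12. AI480526 (-0.76 ± 0.14), 2610035D17Rik (-0.65 ± 0.14), Gm12708 (-0.55 ± 0.11), E230001N04Rik (-0.50 ± 0.14) and Gm9949 (-0.47 ± 0.10) were lower. The call for A530013C23Rik was lost without CIS-/- unstimulated replicate 3 (edgeR adjusted p = 0.197) and that for E230001N04Rik without WT unstimulated replicate 2 (edgeR adjusted p = 0.056). The summed level of 7 erythroid markers was 119 to 123 CPM in these CIS-/- libraries and 43.8 to 45.8 in WT, and its part in the result was not tested.

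After 4 h 25 of the 153 members were called, 17 higher and 8 lower, which is 16.3% beside 17.3% of the 11569 genes tested (8% higher and 9.3% lower, and 21% of genes with 50 counts in 3 libraries). Among the 146 that met the count rule in libraries outside the comparison, 17 were higher and 8 lower, with a median log2 fold change of 0.04 beside -0.02 over all genes. None of these differences reached 2-fold, while 1.09% of all genes tested did. Gm42047 (chr8:121833247-121841178, plus strand) stood at 75.1, 71.6 and 76.5 CPM in libraries labelled CIS-/- and 46.6, 41 and 41.6 in WT (0.79 ± 0.05, edgeR adjusted p = 1.98e-18), with no overlap. AU020206 was higher by 0.64 ± 0.05 (edgeR adjusted p = 8.12e-16) and Gm29264 by 0.62 ± 0.12 (edgeR adjusted p = 2.55e-05). F730016J06Rik stood at 18.3, 18.7 and 18.6 against 34.3, 28.9 and 27.7 CPM (-0.71 ± 0.08, edgeR adjusted p = 7.26e-11). Gm26917 (-0.61 ± 0.12), Gm46189 (-0.60 ± 0.15), Gm39321 (-0.53 ± 0.06) and Gm12708 (-0.41 ± 0.09) were lower too. The calls of Gm37233 (0.61 ± 0.18) and Gm11827 (-0.38 ± 0.14) were each lost without any 1 of several libraries, with adjusted p up to 0.118 and 0.258. That of Gm11827 was also lost with RLE factors (edgeR adjusted p = 0.0598), with DESeq2 (adjusted p = 0.091), with the compared groups only (edgeR adjusted p = 0.0591) and with no filter on low counts (edgeR adjusted p = 0.124), and that of Gm37233 with no such filter (edgeR adjusted p = 0.0529). F930017D23Rik (0.62 ± 0.18) lost its call without WT 4 h replicate 1 (edgeR adjusted p = 0.0853) or 2 (0.066) or CIS-/- 4 h replicate 2 (0.0798), and D7Ertd128e (0.69 ± 0.19) without CIS-/- 4 h replicate 1 (edgeR adjusted p = 0.0699). The erythroid markers summed to 78.5 to 113 CPM in libraries labelled CIS-/- and 30.1 to 35.6 in WT at this time, and their part was not tested.

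At 24 h the genotypes differed widely. Here 118 of the 153 members were called, 70 higher and 48 lower, which is 77.1% beside 76.3% of the 11569 genes tested (38.2% higher and 38.1% lower, and 83.3% of genes with 50 counts in 3 libraries). Among the 122 that met the count rule in libraries outside the comparison, 56 were higher and 39 lower, with a median log2 fold change of 0.12 beside -0.02 over all genes. With library sizes alone the median of all genes shifted by -0.53, and 52 members were higher and 79 lower, so the split between higher and lower holds only relative to the bulk of genes. Leaving out the CIS-/- replicate 1 that stood apart gave 68 higher and 48 lower. Of the 112 members with no exon overlap 50 were higher and 36 lower. A difference of at least 2-fold was called for 48.4% of members and 34.2% of all genes. The first share counts all 153 members, also those outside the 122, whose choice favours large differences here. The second was taken without the count rule, so the 2 shares are not like for like. Markers of other cells moved with this comparison. The 12 monocyte and macrophage markers summed to 617 to 637 CPM in WT and 1461 to 1563 CPM in libraries labelled CIS-/-. Adgre1 stood at 344 and 777 CPM, Cd68 at 75.3 and 492 CPM and Ly6c2 at 45.4 and 77.5 CPM. Csf1r stood at 163 and 169 CPM and C1qa at 0 and 0.0167 CPM. The 9 B and plasma cell markers summed to 80.1 to 83.8 CPM in WT and 14.2 to 16.8 CPM in CIS-/-. The 7 erythroid markers summed to 7.73 to 9.36 CPM in WT and 30.1 to 41.8 CPM in CIS-/-. Their part in the member results was not tested, and in bulk RNA fewer cells of a type and less RNA per cell cannot be told apart.

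Higher at 24 h in the libraries labelled CIS-/- was Gm36161, at 2.87, 2.48 and 3.75 CPM against 0.0931, 0.139 and 0.147 in WT (4.55 ± 0.33, edgeR adjusted p = 2.28e-19). Its exons overlap Gm21370 on the other strand. Gm19510 stood at 46.4, 48 and 43.6 against 2.89, 2.54 and 3.53 CPM (3.96 ± 0.09, edgeR adjusted p = 1.27e-43) and Gm37233 at 304, 449 and 424 against 31.1, 28 and 31.9 CPM (3.70 ± 0.14, edgeR adjusted p = 8.47e-12). For each of them all CIS-/- libraries lay above all WT libraries. Gm4262 was at 8.6, 8.83 and 9.86 against 0.978, 0.8 and 0.539 CPM (3.55 ± 0.19, edgeR adjusted p = 1.8e-25), 4933412O06Rik at 8.68, 9.47 and 8.16 against 0.884, 1.15 and 0.932 (3.10 ± 0.17, edgeR adjusted p = 1.22e-24) and Gm35037 at 21.7, 20.6 and 17.2 against 2.56, 2.92 and 2.55 (2.86 ± 0.12, edgeR adjusted p = 6.56e-30). At 4 h Gm4262 had stood at 5.64, 7.82 and 7.39 CPM in WT and 6, 6.91 and 5.62 in CIS-/-, and Gm19510 at 19, 21.1 and 20.7 and 19, 19.2 and 21.4 CPM.

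Lower at 24 h was F730016J06Rik, with 1.32, 1.2 and 1.3 against 5.45, 7.06 and 5.35 CPM (-2.24 ± 0.18, edgeR adjusted p = 1.71e-17). Gm11827 stood at 1.71, 1.93 and 1.65 against 7.68, 7.72 and 8.93 CPM (-2.21 ± 0.15, edgeR adjusted p = 4.68e-20) and F730311O21Rik at 5.27, 7.08 and 5.1 against 25.6, 25.4 and 24.6 CPM (-2.15 ± 0.10, edgeR adjusted p = 3.67e-29). None of the 3 overlapped between genotypes. Gm17619 (-2.15 ± 0.14), D130017N08Rik (-2.06 ± 0.31) and Gm46430 (-2.02 ± 0.30) were lower by about as much. AU020206, higher in CIS-/- at 4 h, was lower at 24 h, at 62.2, 59.4 and 57.5 against 179, 180.2 and 178 CPM (-1.59 ± 0.05, edgeR adjusted p = 3.42e-39).

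**Figure D3:**
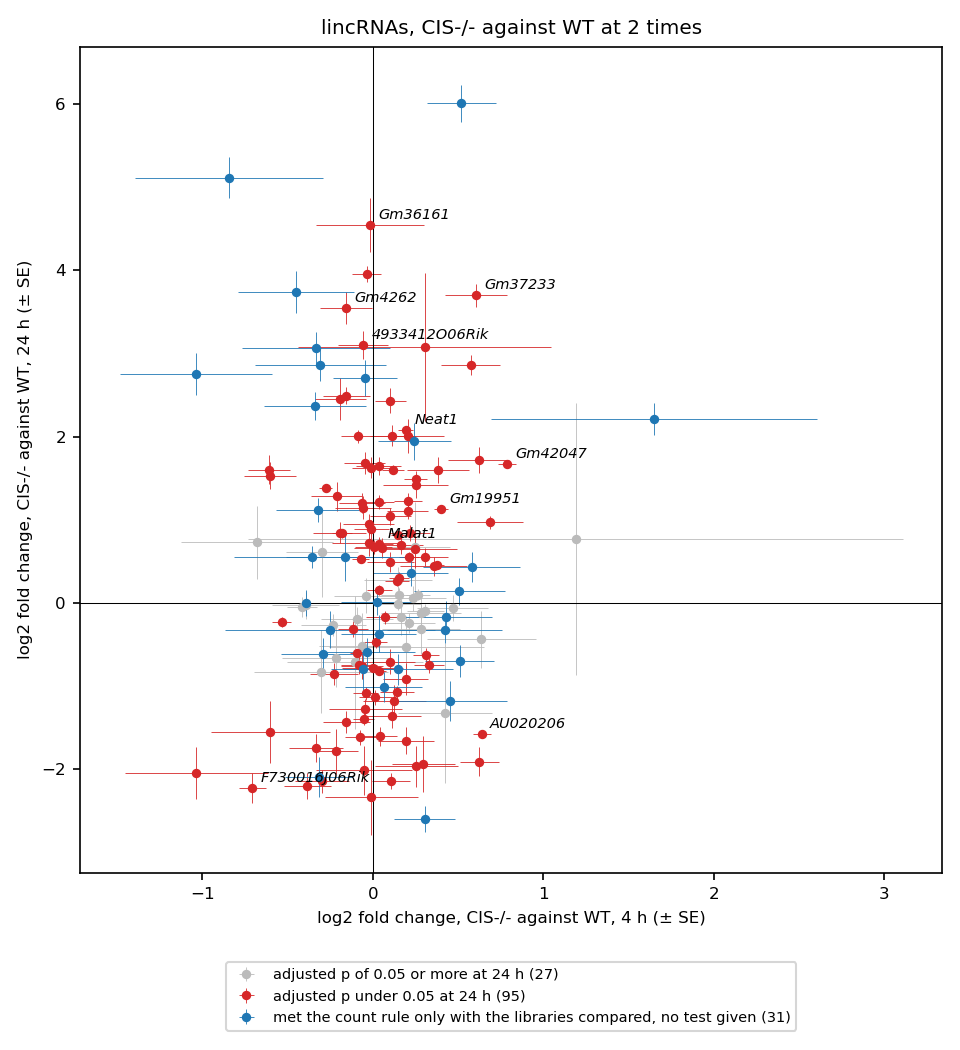
Log2 fold change of libraries labelled CIS-/- against WT at 4 h (horizontal) and 24 h (vertical) for 153 members, with SE bars and colours by the 24 h test (red called, 95; grey not called, 27; blue met the count rule only with the libraries compared and has no test here, 31). Values at 4 h lie mostly between -1 and 1, and at 24 h they run from -2.61 to 6.01.

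The 4 h and 24 h genotype comparisons share no library. Higher at both were 11 members (7.19% of members, beside 4.81% of all genes tested) and lower at both 3 (1.96% beside 4.11%), while 4 went from higher to lower, AU020206 among them (2.61% beside 2.37%), and 4 from lower to higher (2.61% beside 3.88%). Against their own fresh cells, 79 members were higher at 24 h in both genotypes (51.6% of members, beside 29.7% of all genes tested), 37 were lower in both (24.2% beside 29.6%), and 9 were called in opposite directions. The member shares count all 153, of which 97 met the count rule in the 4 h libraries alone. Members high at 24 h are thus favoured by the rule, which the shares of all genes do not carry. The split over the 97 was not made. In 3 of the 9 (1.96% of members, beside 4.71% of all genes) the level fell in WT and rose in CIS-/-: 4933412O06Rik (-2.10 ± 0.19 and 2.09 ± 0.16), 4933432I03Rik (-1.13 ± 0.18 and 0.81 ± 0.13) and 9330175E14Rik (-1.14 ± 0.30 and 1.10 ± 0.23). The other 6 (3.92% beside 5.3%) rose in WT and fell in CIS-/-: F730311O21Rik (1.13 ± 0.08 and -0.98 ± 0.12), Gm17619 (0.82 ± 0.11 and -1.42 ± 0.16), Gm40787 (0.90 ± 0.14 and -0.96 ± 0.19), Gm37494 (0.68 ± 0.07 and -0.50 ± 0.09), 5430425K12Rik (0.56 ± 0.07 and -0.98 ± 0.10) and Gm15729 (0.31 ± 0.09 and -1.40 ± 0.12).

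Tested over the whole table, the interaction at 4 h against fresh cells was called for few members: 14 of the 153 members were called, 10 higher and 4 lower, which is 9.15% beside 15.7% of the 11569 genes tested (5.32% higher and 10.4% lower, and 19.6% of genes with 50 counts in 3 libraries). Among the 125 that met the count rule in libraries outside the comparison, 9 were higher and 4 lower, with a median log2 fold change of 0.06 beside -0.02 over all genes. F730016J06Rik had the smallest adjusted p, with an interaction of -0.82 ± 0.09 (edgeR adjusted p = 1.94e-10). With no filter on low counts 9 members were called in place of 14. Without CIS-/- 24 h replicate 1 there were 19, 10 higher and 9 lower. At 24 h 97 of the 153 members were called, 54 higher and 43 lower, which is 63.4% beside 64.7% of the 11569 genes tested (31.6% higher and 33.1% lower, and 74.3% of genes with 50 counts in 3 libraries). Among the 97 that met the count rule in libraries outside the comparison, 41 were higher and 29 lower, with a median log2 fold change of 0.46 beside -0.02 over all genes. Without TMM factors 36 were higher and 65 lower, with a shift of -0.49 in the median of all genes. Positive interactions were found for 4833407H14Rik (1.49 ± 0.06, edgeR adjusted p = 8.59e-31), Gm14005 (1.71 ± 0.10, edgeR adjusted p = 9.05e-24) and Neat1 (1.98 ± 0.06, edgeR adjusted p = 4.09e-21), and a negative one for F730311O21Rik (-2.11 ± 0.14, edgeR adjusted p = 1.08e-20).

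Among the microRNA hosts whose sequences are shown above, Mir17hg rose over time in both genotypes. WT libraries held 0.367, 0.739 and 0.913 CPM before, 3.28, 3.67 and 2.41 at 4 h and 8.85, 8.73 and 10.6 at 24 h, and libraries labelled CIS-/- 1.28, 1.4 and 1.03, 2.7, 4.15 and 5.19 and 11.6, 12.4 and 13.6 CPM. At 24 h it had changed by 3.76 ± 0.20 in WT (edgeR adjusted p = 2.28e-24) and 3.35 ± 0.18 in CIS-/- (edgeR adjusted p = 1.2e-24). The 24 h genotype difference of 0.44 ± 0.11 (edgeR adjusted p = 0.000576) turned its sign without TMM factors (-0.10, edgeR adjusted p = 0.433). Mir142hg rose from 23 ± 2.01 to 42.7 ± 2.88 CPM in WT (0.89 ± 0.07, edgeR adjusted p = 1.14e-15) and from 27 ± 1.45 to 47.4 ± 4.72 CPM in CIS-/- (SD, n = 3). Its 24 h genotype difference, 0.15 ± 0.06 (edgeR adjusted p = 0.0304), turned to -0.38 without TMM factors (edgeR adjusted p = 1.12e-06) and was lost without CIS-/- 24 h replicate 1 (0.08, edgeR adjusted p = 0.272) or WT 24 h replicate 2 (0.10, edgeR adjusted p = 0.177). 6720427I07Rik, the host of the let-7 hairpins, stood at 3.72, 4.66 and 3.48 CPM in WT at 24 h after 1.47, 1.21 and 0.967 before (1.73 ± 0.20, edgeR adjusted p = 3.32e-11). These are levels of the host transcripts, not of the mature microRNAs.

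Other long noncoding RNAs of known roles, drawn from 4 lists that hold members and other biotypes, were counted for context. Of 9 tested nuclear, imprinted or X-linked RNAs, 6 were higher and 1 lower in libraries labelled CIS-/- at 24 h, with a median of 0.55. Of 11 snoRNA hosts 4 were higher and 1 lower (median 0.02). Of 6 microRNA hosts 5 were higher and none lower (median 1.17), and of 6 immune and stress RNAs 5 were higher and none lower (median 1.17), beside 38.2% higher and 38.1% lower among all genes tested. Without TMM factors Mir142hg (-0.38) and Mir17hg (-0.10) turned sign, and Malat1 and 2900097C17Rik of the nuclear list lost their calls. Levels were low in WT and CIS-/- at 24 h for Mir155hg (0.126 and 1.75 CPM), Lncpint (0.38 and 2.28) and the immune RNA AW112010 (0.0155 and 0.533). At 4 h in WT the snoRNA hosts were lower in 7 and higher in 1 (median -0.71), and the microRNA hosts were higher in 4 of 6 (median 1.40), beside 38.1% higher and 38.2% lower among all genes tested in that comparison. Snhg20, the snoRNA host among the members, stood at low levels, with 4.7, 3.65 and 5.2 CPM in WT and 2.64, 2.21 and 2.7 in CIS-/- at 24 h, and it met the count rule only with the help of these libraries.

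Many members lie near protein-coding genes. Of the 153, 131 had a coding start within 100 kb of their own, with a median distance of 19276 bases, and 19 within 1 kb, 14 of these in divergent orientation. In 107 pairs the coding neighbour was tested too, and in 10 of these the member and the neighbour share exon bases. The log2 fold changes of the pair correlated with r = 0.61 (rho = 0.64) for the 24 h genotype difference, beside r = 0.34 over 6281 pairs of neighbouring coding genes. Over the 97 pairs with no shared exon base, a subset taken after the data were seen, r was 0.62 (rho = 0.66). For the other 24 h and 4 h time courses r lay between 0.40 and 0.58 for members and between 0.34 and 0.38 for coding pairs. The points are gene pairs from 1 set of libraries, not replicates. Some neighbours, such as Tmem189, Cpeb4 and Alox5ap, are counted with more than 1 member. The pairs include members that met the count rule only with the libraries compared, such as Gm32568 and Gm34907 for the 24 h genotype difference. Coding pairs were taken without this rule. The values of r without such members were not computed, so member and coding pairs are not alike in how they were chosen. In unstimulated cells the genotype differences gave r = 0.08 beside 0.10.

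**Figure D4:**
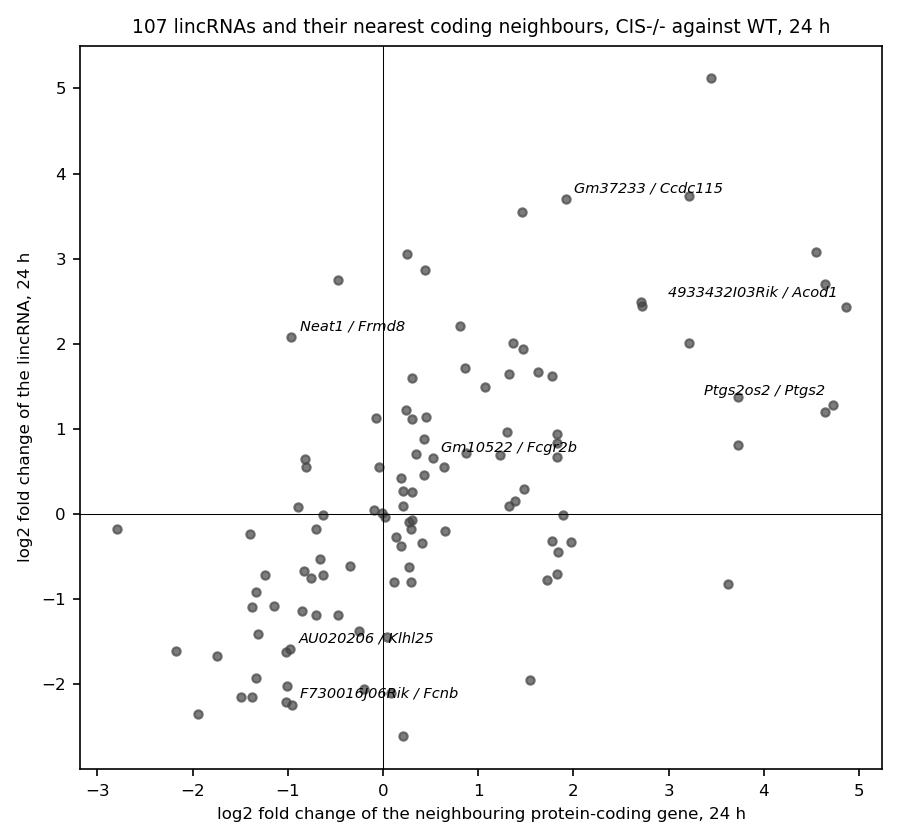
Log2 fold change of CIS-/- against WT at 24 h for 107 members (vertical) and their nearest tested protein-coding neighbour (horizontal), 1 point per pair. Most pairs lie in the lower left and upper right (r = 0.61), and Neat1 with Frmd8 is among the exceptions. The pairs include members that met the count rule only with the libraries compared.

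4933432I03Rik lies 13174 bases from Acod1, the gene of the enzyme that makes itaconate, and is transcribed away from it. The member stood at 16.7, 17.4 and 17 CPM in WT at 4 h and, at 24 h, at 1.3, 1.46 and 1.37 in WT and 9.07, 6.81 and 6.86 in CIS-/-. Acod1 stood at 394 ± 13.2, 69.5 ± 1.44 and 2018 ± 67.2 CPM in these groups. Both were low in WT at 24 h, and Acod1 alone was highest in CIS-/- at 24 h.

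9330175E14Rik starts 747 bases from the start of Nlrc5, the transactivator of MHC class I genes, and overlaps its exons by 78 bases on the opposite strand. It peaked at 4 h, at 5.79, 7.95 and 6.35 CPM in WT and 5.48, 6.62 and 5.36 in CIS-/-, from 1.22, 0.806 and 1.4 and 1.34, 1.2 and 1.48 before. Nlrc5 went from 9.35 ± 0.611 to 470.5 ± 13.5 CPM in WT. At 24 h Nlrc5 stood at 2.8 ± 0.32 CPM in WT, below its fresh level. In CIS-/- it stood at 18.5 ± 2.57 CPM, where fresh cells held 14.25 ± 0.508. The member stood at 0.466, 0.661 and 0.392 CPM in WT and 3.49, 2.76 and 2.55 in CIS-/- at 24 h. With strand unknown for the counting, reads of Nlrc5 may count for the member.

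Ptgs2os2 starts 64917 bases from Ptgs2, the gene of the prostaglandin enzyme COX-2. Ptgs2os2 stood at 10.2, 8.6 and 9.67 CPM in fresh WT cells, 5.79, 6.73 and 6.35 at 4 h and 1.68, 2.02 and 1.72 at 24 h. Ptgs2 went from 186 ± 3.52 to 8.29 ± 1.26 and 19.99 ± 1.56 CPM. In CIS-/- at 24 h Ptgs2 reached 535 ± 10.6 CPM, while Ptgs2os2 stood at 5.12, 2.85 and 4.9, above WT (1.28 ± 0.18, edgeR adjusted p = 3.38e-09) and below its fresh level of 11.4, 11.8 and 11.3.

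F730016J06Rik begins 10592 bases from Fcnb, the ficolin-B gene of immature neutrophils, in divergent orientation. Fcnb went from 20.2 ± 0.228 CPM in fresh WT cells to 6.69 ± 1.5 at 4 h and 0.775 ± 0.46 at 24 h, and the member fell over the same times from 92.1 ± 3.63 to 30.3 ± 3.5 and 5.95 ± 0.961 CPM. Gm10522 and Fcgr2b rose together, Fcgr2b from 38.6 ± 1.2 to 2378 ± 73.4 CPM in WT at 4 h. Gm29264, 17085 bases from Alox5ap, a gene of leukotriene synthesis, stood at 1.32, 2.39 and 1.75 CPM in CIS-/- and 6.75, 5.98 and 7.8 in WT at 24 h, and Alox5ap at 338 ± 24.5 and 851 ± 9.39 CPM. D730003I15Rik, chosen after its values were seen, lies 6415 bases from Atf3, an AP-1 family factor, and was at 10.2, 9.38 and 9.96 against 5.12, 3.72 and 4.12 CPM at 24 h (1.20 ± 0.12, edgeR adjusted p = 1.73e-13), where Atf3 was at 976 ± 29.1 against 39.2 ± 1.22 CPM. Neat1 did not follow its neighbour Frmd8, which was at 39.5 ± 1.85 CPM in CIS-/- and 76.9 ± 2.47 in WT at 24 h. Other pairs went apart too. At 24 h Hk2 stood at 153 ± 3.88 CPM in CIS-/- and 52.3 ± 2.08 in WT. Its neighbour Gm38843 had 5, 5 and 5 counts in CIS-/- and 27, 45 and 23 in WT. Stx11 stood at 372 ± 14.5 and 113 ± 2.15 CPM, where B230208H11Rik had 56, 29 and 61 and 107, 183 and 113 counts.

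Some members lie next to each other. On chromosome 8 (126755571 to 126908215) Gm45805, Gm31718 and A630001O12Rik all rose at 4 h in WT, by 4.03 ± 0.21, 2.88 ± 0.09 and 3.13 ± 0.18. On chromosome 10, 1110002J07Rik and Gm26576, which begin side by side on opposite strands, rose by 5.14 ± 0.19 and 3.33 ± 0.31. Beside Gm42418 lies Gm26917, which rose in WT at 4 h by 1.31 ± 0.13 (edgeR adjusted p = 9.83e-14). Whether ribosomal RNA reads have a part in the counts of Gm26917 was not tested. By contrast Platr7 and E230014E18Rik, neighbours on chromosome 10, went apart at 4 h in WT (-0.77 ± 0.09 and 1.71 ± 0.04).

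Of the 153 members, 40 had 50 counts in all 18 libraries, 48 in 3 to 6, and 14 in 1 group only, 7 of these in CIS-/- at 24 h and 4 in WT at 24 h. The 24 h genotype comparison therefore holds 31 members that met the count rule only with the help of its own libraries, and for 19 of them all libraries with 50 counts within the comparison lie in 1 genotype. Among them Gm47709 stood at 14.2, 12.7 and 13 CPM in CIS-/- at 24 h and 0.14, 0.278 and 0.147 in WT. Gm34907 was at 10.4, 9.2 and 9.91 and 1.26, 1.39 and 1.37 CPM, Gm32568 at 8.53, 8 and 7.91 and 0.233, 0.209 and 0.245 CPM and Gm10384, the other way, at 1.94, 1.56 and 1.65 and 10.3, 10.9 and 10.2 CPM. In each of these the groups lie apart, as the choice of members makes likely.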

How the data were processed

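RNA of sorted mouse bone marrow neutrophils was sequenced in 18 libraries. The deposited table holds raw counts for each Ensembl gene, and the submitters' processing notes name Trimmomatic, STAR, featureCounts and mm10. Their versions, the annotation and the use of strand were not stated. The library kit keeps strand, per the labels' protocols. The labels' treatment protocol gives 42 h where titles and extraction protocol give 24 h, and 24 h was used.

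Of 53379 IDs 53274 matched GENCODE M21 without the version, and the 105 others held 0.0238% of the counts. Genes passing filterByExpr (11569, with 99.928% of the counts) were tested with edgeR 4.0.16 in R 4.3.3: TMM factors, 1 robust quasi-likelihood fit of 6 groups (12 residual degrees of freedom), and Benjamini-Hochberg adjusted p under 0.05 over all genes. All 153 members passed. Fold changes are log2 ± SE, and levels are CPM on TMM-scaled library sizes. Promoters and microRNAs are from RefSeq tables. The pipeline was tested on simulated counts.

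The members, the gene lists and the rule for names were chosen with earlier results of these data known. Named were the 12 members with the highest CPM per kb, those on 4 lists of known long noncoding RNAs and, per comparison, up to 6 with the largest positive and 6 with the largest negative called change, at least 1 CPM and groups that do not overlap; the last was not asked of interactions. Neighbours are the protein-coding genes with the nearest start within 100 kb. Alternatives were RLE factors, library sizes alone, DESeq2 1.42.0, no and a stricter count filter, the compared groups only, a replicate block and each library left out. A group without counts is given a floor of 3 counts.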

Additional observations from a re-analysis of the deposited data

Results flagged for a closer look

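The change with GM-CSF differed between genotypes, by the interaction term of the edgeR fit over all genes, for the following named members that met the count rule in libraries outside the comparison. At 4 h against fresh cells the interaction was positive (a larger rise or smaller fall in libraries labelled CIS-/-) for 4933412O06Rik (1.03 ± 0.23, edgeR adjusted p = 0.000717), F930017D23Rik (0.98 ± 0.33, 0.0311), AI480526 (0.72 ± 0.16, 0.000553), Gm19951 (0.66 ± 0.23, 0.0464), Gm38171 (0.55 ± 0.14, 0.0021), E230014E18Rik (0.23 ± 0.06, 0.00568) and Gm29264 (0.57 ± 0.16, 0.00884). It was negative for F730016J06Rik (-0.82 ± 0.09, 1.94e-10), Gm46224 (-0.80 ± 0.17, 0.000223), A530013C23Rik (-0.67 ± 0.23, 0.0421) and Gm7160 (-0.53 ± 0.18, 0.0342). Gm29264 lost its call without CIS-/- unstimulated replicate 2 (edgeR adjusted p = 0.072). The calls of F930017D23Rik, Gm19951, A530013C23Rik and Gm7160 were each lost without any 1 of several libraries, with edgeR adjusted p up to 0.325 for A530013C23Rik. With no filter on low counts these calls were lost too (edgeR adjusted p between 0.0541 and 0.123). With DESeq2 A530013C23Rik (adjusted p = 0.0668) and Gm7160 (0.0775) were not called. Library sizes alone removed the call of A530013C23Rik (edgeR adjusted p = 0.057).

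At 24 h the interaction was positive for 4933412O06Rik (4.19 ± 0.25, edgeR adjusted p = 1.27e-22), Gm4262 (3.55 ± 0.52, 2.14e-08), Gm43661 (2.71 ± 0.23, 5.24e-16), 9330175E14Rik (2.24 ± 0.38, 6.4e-07), Neat1 (1.98 ± 0.06, 4.09e-21), Gm14005 (1.71 ± 0.10, 9.05e-24), Ptgs2os2 (0.999 ± 0.21, 3.43e-05), Mirt1 (0.68 ± 0.06, 8.19e-13), 4833407H14Rik (1.49 ± 0.06, 8.59e-31), Gm19951 (1.39 ± 0.23, 2.32e-07), 1810058I24Rik (0.56 ± 0.07, 2.19e-09), E230014E18Rik (0.31 ± 0.06, 2.4e-05), Malat1 (0.63 ± 0.12, 0.000358) and 2900097C17Rik (0.52 ± 0.08, 4.77e-08). Without TMM factors the calls of Malat1 (0.14, edgeR adjusted p = 0.326) and 2900097C17Rik (0.03, edgeR adjusted p = 0.744) were lost, as was that of 1810058I24Rik (0.07, edgeR adjusted p = 0.375), and E230014E18Rik turned sign (-0.19, edgeR adjusted p = 0.00914).

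The 24 h interaction was negative for F730016J06Rik (-2.35 ± 0.19, edgeR adjusted p = 2.07e-17), Gm17619 (-2.24 ± 0.19, 5.21e-16), Gm11827 (-2.16 ± 0.18, 3.17e-16), F730311O21Rik (-2.11 ± 0.14, 1.08e-20), Gm15729 (-1.71 ± 0.15, 2.24e-15) and Gm38171 (-0.40 ± 0.15, 0.0163). Gm38171 lost its call without CIS-/- unstimulated replicate 1 (-0.36, edgeR adjusted p = 0.054) or CIS-/- 24 h replicate 2 (-0.33, edgeR adjusted p = 0.0544). All these interactions use the unstimulated libraries labelled CIS-/-, whose Cish level goes against the label.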

How the results depend on the processing

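Of 6725 values recomputed for 269 named results under 25 settings, 6572 kept direction and side of the threshold, 118 lost their call, 29 gained one and 6 turned sign. All 6 did so when TMM factors were dropped: Mirt1 in WT at 24 h against fresh cells (0.30), Malat1 (0.37) and Neat1 (0.0577) in WT at 24 h against 4 h, and Mir142hg (-0.38) and Mir17hg (-0.10) between genotypes at 24 h, and the 24 h interaction of E230014E18Rik (-0.19). By construction those sizes do not correct for a few abundant genes; the cause was not tested further. The number of members called stayed within 1.5 times of the reported one in every comparison and setting except the 4 h interaction with no low-count filter, 9 in place of 14; the cause was not tested. With each library left out in turn, between 124 and 130 members were called in WT at 4 h, 128 and 132 at 24 h and 108 and 120 for 24 h against 4 h. In libraries labelled CIS-/- the ranges were 122 to 129, 139 to 144 and 128 to 133, between genotypes 19 to 34, 20 to 27 and 115 to 120 (fresh, 4 h, 24 h), and for the interactions 10 to 19 and 90 to 100.

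Replicate numbers did not pair the libraries: same-numbered deviations correlated between -0.0595 and 0.0497, and in 1 of 9 group pairs every library correlated best with its own number. With the replicate block 129, 130 and 116 members were called in WT (4 h, 24 h, 24 h against 4 h), 128, 143 and 133 in CIS-/-, 29, 24 and 118 between genotypes and 14 and 97 for the interactions. The block left Gm11827 between genotypes at 4 h without its call (edgeR adjusted p = 0.0511). Members of a few counts per library are limited by depth.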
